A study of Caenorhabditis elegans with 6 samples.

Results

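The genes described here are the neuropeptide-like protein (nlp) genes of the nematode Caenorhabditis elegans, taken as every counted RefSeq transcript record whose gene symbol is nlp followed by a number. The rule found 79 records of 71 genes among 50832 records of the whole series, and 8 of the 71 genes had too few counts to test. A further 7 nlp genes of the RefSeq table used for names, such as nlp-34 and nlp-47, were not analysed here. An nlp gene encodes a precursor protein that enters the secretory pathway, is cut at pairs of basic residues and is often amidated at the new carboxyl ends, so that one precursor yields several short peptides. Most nlp peptides are made by neurons and act on G protein-coupled receptors to set locomotion, feeding, egg laying, sleep and the response to odours. A subgroup with glycine-rich sequences, including nlp-29, is made in the epidermis and is known as antimicrobial peptides that are induced by fungal infection, wounding and osmotic stress.

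Total RNA of whole first-stage (L1) larvae was sequenced from 2 groups of 3 libraries each. The double mutant animals carried spr-5 (by101), a mutation on chromosome I, together with met-2 (n4256), a mutation on chromosome III, and are called the mutant or spr-5; met-2. The other group was the wild-type strain N2. SPR-5 belongs to the LSD1 family of enzymes that take methyl groups off histone H3, and MET-2 is a SETDB1-like enzyme that adds methyl groups to histone H3. The growth temperature was 20 °C, on HT115 bacteria, an Escherichia coli strain used for feeding RNAi. A separate hatch temperature of 21 to 22 °C is given for all 6 samples. RNA came from about 1000 to 1500 starved larvae that hatched overnight in buffer. The column headers of all 6 tables also carry the name L4440, which no label explains, and no generation number is given for the mutant. Whether replicates of a group were separate cultures is not stated, so a p-value here measures only the spread between libraries, which may be technical. Total counts were 18065786, 17062557 and 25368364 in mutant replicates 1, 2 and 3 and 22014739, 21127829 and 20010959 in those of N2. The targeted genes were checked in every library. Counts of spr-5 were 129, 116 and 123 CPM (counts scaled to library size with TMM factors) in the mutant libraries against 66.2, 47.8 and 47.5 CPM in the N2 libraries, and those of met-2 87.4, 79.9 and 81 CPM against 118.7, 101 and 114 CPM. Both transcripts were present in all libraries, and counts over a whole transcript cannot reveal a deletion inside it, so the labels stay unchecked by these genes.

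As a family the nlp genes were lower in the mutant larvae. Of 64 nlp records that passed the count filter, 34 fell and 0 rose in edgeR's quasi-likelihood test (adjusted p below 0.05), each from a different gene. Over all 14557 tested records, 25.9% were called, 11.7% as falling and 14.3% as rising. A fall of at least 2-fold was called for 9 nlp records, against 4.78% of all records. The median log2 fold change (mutant over N2) of the tested nlp records was -0.58, with an interquartile range of -0.78 to -0.38, and that of all tested records was -0.01. No nlp record rose at an unadjusted p below 0.05 either (0 of 64), and DESeq2 and limma voom gave 0 rising records as well. A negative value was fitted for 61 of 64 nlp records, against 50.7% of all tested records. In 43 nlp records all 3 mutant libraries lay below all 3 N2 libraries, against 21.3% of all tested records, and in 0 they lay above, against 22.3%. Summed over the family, nlp records held 3137, 2931 and 3095 CPM in mutant replicates 1, 2 and 3, against 4334, 4435 and 4567 CPM in those of N2. As a share of unscaled counts this was 0.336, 0.311 and 0.343% in the mutant libraries and 0.358, 0.424 and 0.456% in the N2 libraries, so the groups did not overlap on either scale. In RNA of whole animals, fewer cells of a type and less RNA per cell cannot be told apart.

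**Figure D1:**
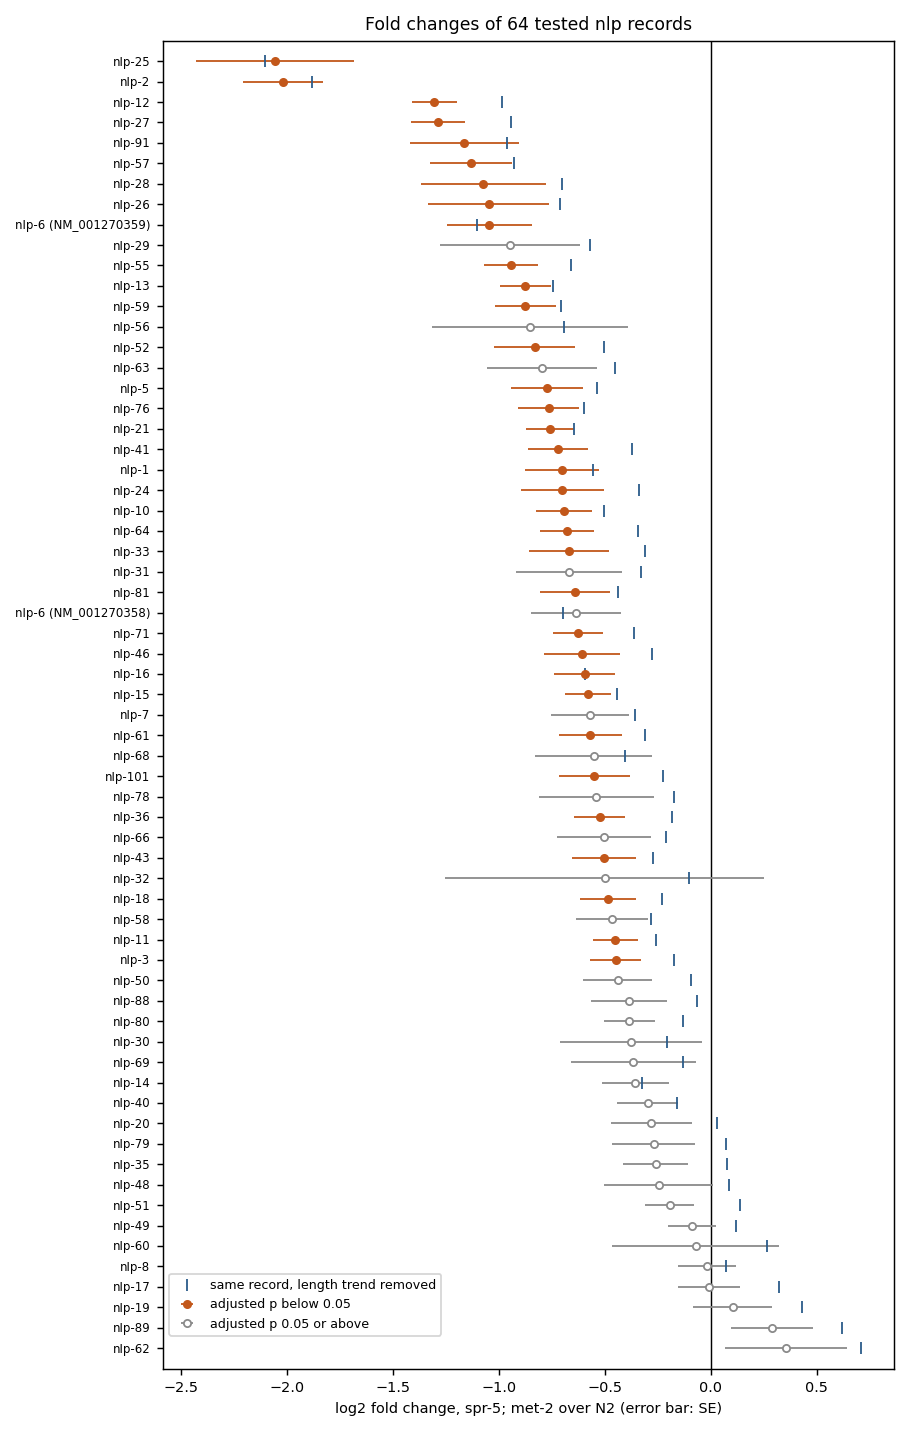
Log2 fold change (mutant over N2) of each tested nlp record on the horizontal axis, with its standard error, ordered by size down the page. Filled points passed the threshold (34 records) and open points did not (30 records), and a vertical tick marks the same record after a trend with gene length was removed. All 34 filled points lie left of 0, between -2.06 and -0.45.

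The size of the family's difference depended on how gene length and library scaling were treated. The tested nlp genes were short, with a median exonic length of 523 bases against 1277 bases for all tested records with a known length. Across all such records the log2 fold change followed length. Its median was -0.24 in the shortest quintile (up to 725 bases), -0.07, -0.0032 and 0.05 in the next ones, and 0.18 in the longest quintile. In the shortest quintile, 20.8% of all 2560 records fell, while 28 of the 55 nlp records there fell, with a median of -0.55. With the length trend removed from each library, a setting added after the data were seen, 15 nlp records fell and 1 rose, where 10.6% of all records fell and 13.8% rose, and the nlp median was -0.33. Scaling by library size alone shifted the median of all records to 0.21 and that of nlp records to -0.36, with 13 nlp records falling and 0 rising, where 5.68% of all records fell and 19.8% rose. Relative to the median of all records, the nlp median lay at -0.56 with TMM, -0.57 with library size alone and -0.32 with the length trend removed. The count of falling nlp records was 17 without mutant replicate 2, 16 without mutant replicate 3 and 23 without N2 replicate 2, where 6.16%, 5.41% and 7.51% of all tested records fell, in the same order. The nlp median in these fits was -0.53, -0.60 and -0.60. Of the 34 falling records, 10 passed in all 15 alternative settings that were run per record: nlp-2, nlp-6, nlp-12, nlp-13, nlp-21, nlp-25, nlp-27, nlp-55, nlp-57 and nlp-59.

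**Figure D2:**
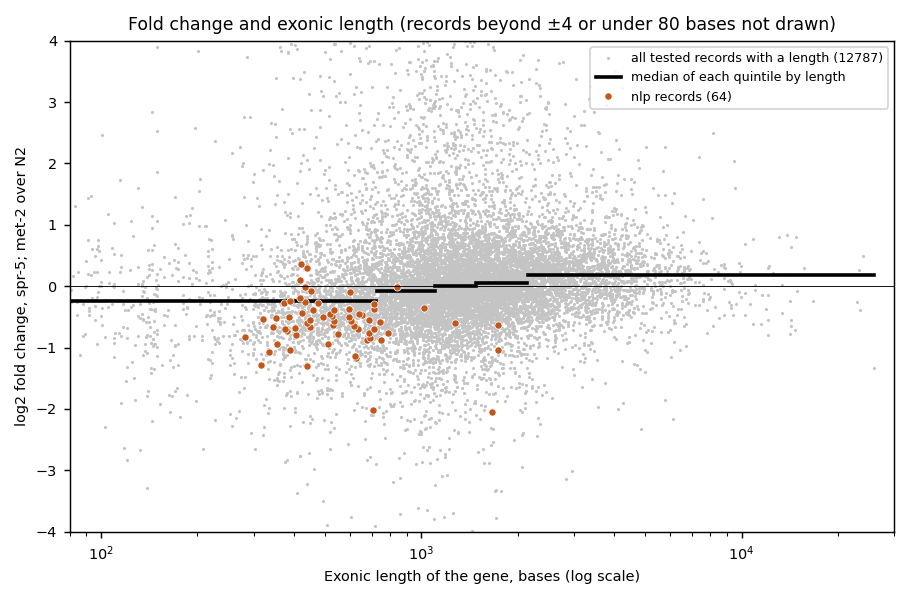
Log2 fold change (mutant over N2) against exonic gene length in bases on a log scale, for all tested records with a known length (grey) and for the 64 nlp records (orange). Black bars mark the median of each quintile of records by length, which runs from -0.24 in the shortest to 0.18 in the longest, and most nlp points lie below the bar of their quintile.

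**Figure D3:**
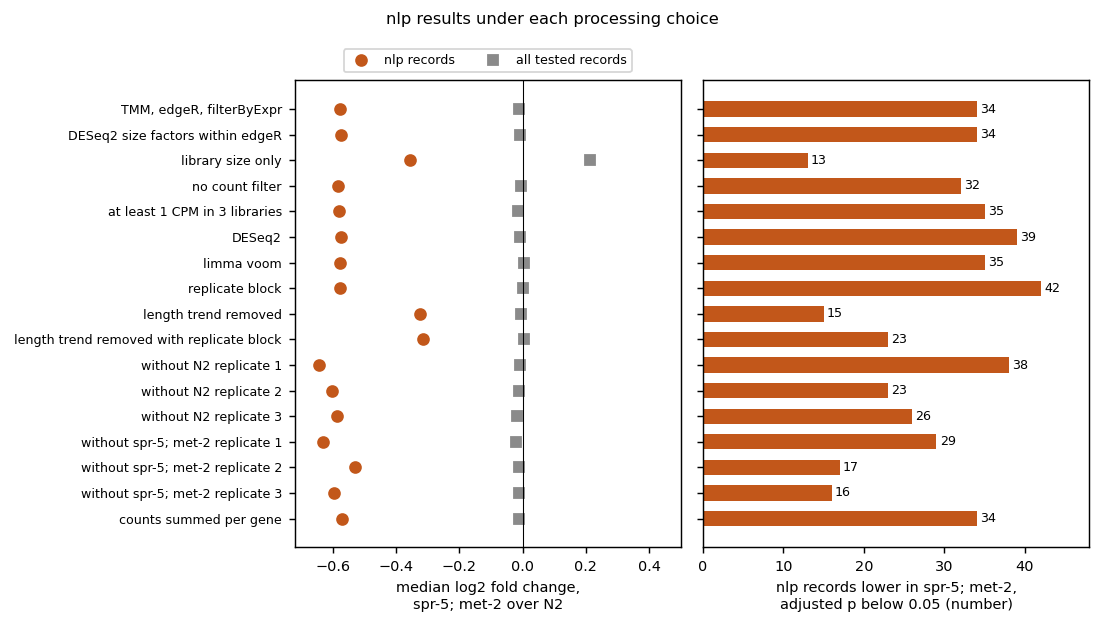
Median log2 fold change (mutant over N2) of nlp records (circles) and of all tested records (squares) under each processing choice on the left, and the number of nlp records that fell on the right. The nlp median stays below that of all records in each setting drawn, and the number falling lies between 13 and 42.

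Among neuropeptides with a described neuronal role, nlp-2 and nlp-12 had the largest falls. NLP-2 is a precursor of RPamide peptides that act on receptors related to the gonadotropin-releasing hormone receptor and promote wakefulness. The gene nlp-2 (RefSeq NM_076025, chromosome X) held 9.46, 9.54 and 8.82 CPM in mutant replicates 1, 2 and 3, against 46.9, 35.9 and 30.2 CPM in N2 replicates 1, 2 and 3. The groups were far apart, and within N2 replicate 1 was the highest. Its log2 fold change was -2.02 ± 0.19 (SE, adjusted p in edgeR = 0.000239), and -1.88 with the length trend removed. NLP-12 is the cholecystokinin-like precursor made by the stretch-sensitive DVA interneuron, which modulates locomotion through the receptors CKR-1 and CKR-2. The gene nlp-12 (RefSeq NM_058507, chromosome I) held 69.1, 70.4 and 74.3 CPM in mutant replicates 1, 2 and 3, against 169, 187 and 172 CPM in N2 replicates 1, 2 and 3. Both groups were tight, and its log2 fold change was -1.30 ± 0.11 (SE, adjusted p in edgeR = 0.000126), and -0.99 with the length trend removed.

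Of the remaining well-supported falls, several are precursors whose peptides have been given no role here because none is certain. The gene nlp-13 (RefSeq NM_071769, chromosome V) held 112, 94.9 and 107.5 CPM in mutant replicates 1, 2 and 3, against 210.1, 187 and 179.8 CPM in N2 replicates 1, 2 and 3, with a log2 fold change of -0.88 ± 0.12 (SE, adjusted p in edgeR = 0.00174). The gene nlp-55 (RefSeq NM_063350, chromosome II) held 76.9, 77.3 and 81.7 CPM in mutant replicates 1, 2 and 3, against 130.4, 155 and 169 CPM in N2 replicates 1, 2 and 3, with a log2 fold change of -0.94 ± 0.13 (SE, adjusted p in edgeR = 0.00153). In both genes the highest mutant library stayed well under the lowest N2 library. The gene nlp-57 (RefSeq NM_077491, chromosome X) held 12.9, 8.27 and 11.5 CPM in mutant replicates 1, 2 and 3, against 23.8, 22.4 and 25.4 CPM in N2 replicates 1, 2 and 3, with a log2 fold change of -1.13 ± 0.19 (SE, adjusted p in edgeR = 0.00444). The gene nlp-59 (RefSeq NM_001028592, chromosome V) held 23, 18.2 and 19.4 CPM in mutant replicates 1, 2 and 3, against 40.2, 34.4 and 36.5 CPM in N2 replicates 1, 2 and 3, with a log2 fold change of -0.87 ± 0.15 (SE, adjusted p in edgeR = 0.00411). The gene nlp-21 (RefSeq NM_067065, chromosome III) held 34, 32.7 and 36.2 CPM in mutant replicates 1, 2 and 3, against 56.1, 59.1 and 59 CPM in N2 replicates 1, 2 and 3, with a log2 fold change of -0.76 ± 0.11 (SE, adjusted p in edgeR = 0.00231). Its groups did not overlap either, and its 3 values within each group were close to each other. The gene nlp-6 had 2 records with counts. One (NM_001270359) held 3.57, 4.25 and 3.95 CPM in the mutant libraries against 8.63, 8.77 and 6.91 CPM in the N2 libraries and fell, at -1.05 ± 0.20 (SE, adjusted p in edgeR = 0.00763). The other (NM_001270358) was at -0.64 ± 0.21 (SE, adjusted p in edgeR = 0.0611), and its adjusted p was 0.0479 with the replicate number as a block, 0.0382 without N2 replicate 3, and ranged from 0.0335 to 0.216 over all alternatives.

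Another 5 of the 15 smallest adjusted p-values belonged to falls of less than 2-fold. The gene nlp-15, which encodes orcokinin-like peptides, held 141, 122 and 129 CPM in the mutant libraries against 192, 193 and 201 CPM in the N2 libraries, a log2 fold change of -0.58 ± 0.11 (SE, adjusted p in edgeR = 0.00698) that missed the threshold with library size alone (adjusted p = 0.0817, with 4.03e-05 to 0.0817 over all alternatives). The gene nlp-10 held 113, 88.1 and 90.4 CPM in the mutant libraries against 168, 149.7 and 153 CPM in the N2 libraries, at -0.69 ± 0.13 (SE, adjusted p in edgeR = 0.00756), and missed it with the length trend removed (0.0542, with 0.000139 to 0.0542 over all). In both, all mutant libraries lay below all N2 libraries. The genes nlp-64, nlp-71 and nlp-76 were at -0.68 ± 0.13 (adjusted p = 0.00680), -0.63 ± 0.12 (adjusted p = 0.00707) and -0.77 ± 0.15 (adjusted p = 0.00725), by the same test. The calls of nlp-64 and nlp-71 were lost with library size alone (0.0620 and 0.0835) and with the length trend removed (0.109 and 0.0732), and that of nlp-76 with library size alone (0.0653). Over all alternatives these 3 genes ranged from 5.36e-05 to 0.109, 8.41e-05 to 0.0835 and 5.69e-05 to 0.0653. A further 10 records fell with log2 fold changes between -0.83 and -0.45: nlp-5, nlp-11, nlp-16, nlp-41, nlp-43, nlp-46, nlp-52, nlp-61, nlp-81 and nlp-101. Their mean levels ran from 8.98 to 92.3 CPM in the mutant and from 15.2 to 126 CPM in N2. The groups did not overlap in any of the 10, against 21.3% of all tested records with all mutant libraries below all N2 libraries. The same libraries gave the calls, and 0 called nlp records had overlapping groups, so this is no separate support. Only 1 of them passed with the length trend removed, and 1 without mutant replicate 2, 1 without mutant replicate 3, 4 without N2 replicate 2, 5 without N2 replicate 3, 7 without mutant replicate 1 and 10 without N2 replicate 1.

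**Figure D4:**
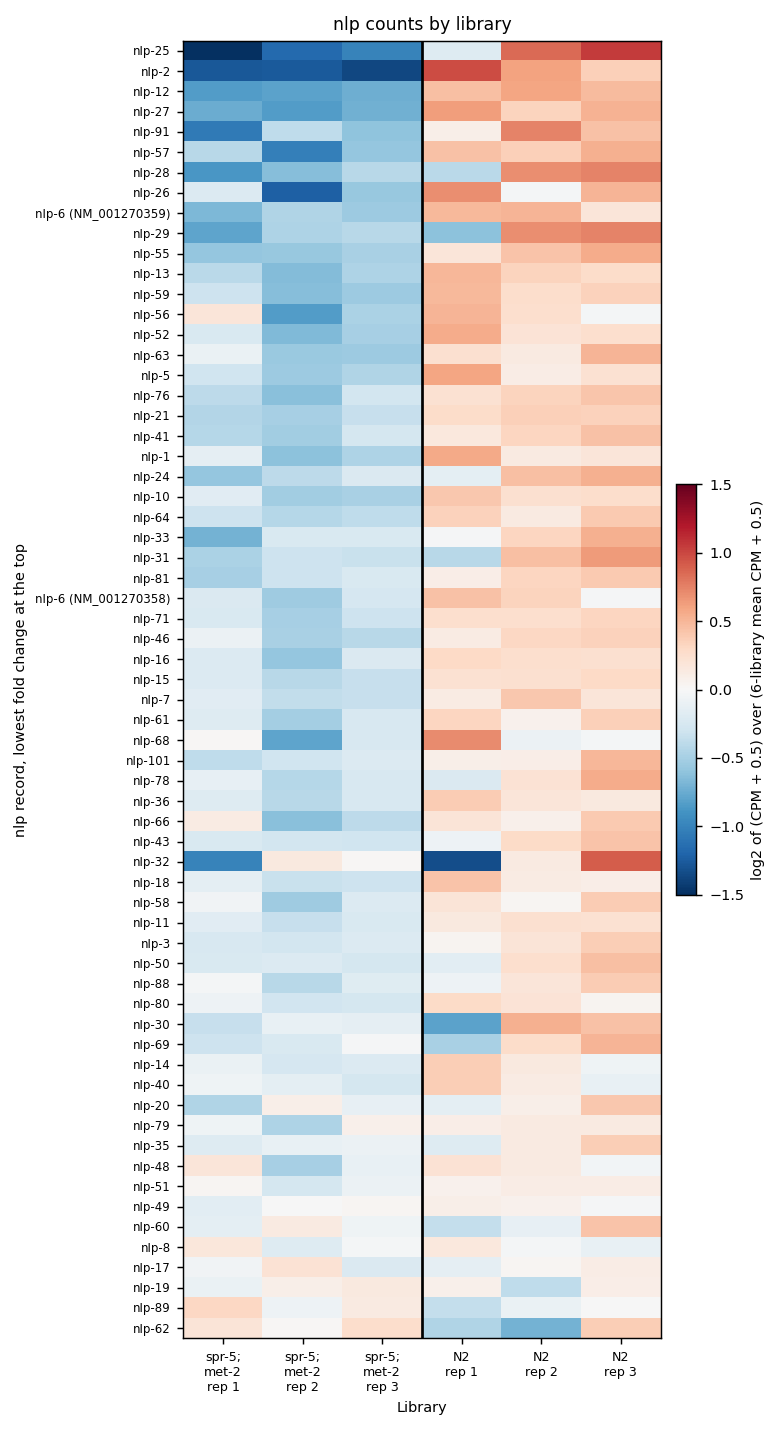
Counts of the 64 tested nlp records by library, as log2 of CPM plus 0.5 over the mean of the 6 libraries plus 0.5, with records ordered by fold change and the mutant libraries to the left of the black line. Blue is below and red above the record's own mean, and the top rows are blue in all 3 mutant libraries, while nlp-49 and nlp-8 near the bottom are pale throughout.

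Of the 10 most abundant nlp transcripts, by mean CPM per kilobase of exonic length over the 6 libraries, 6 fell. Among all 64 tested nlp records 34 fell, and among all tested records 11.7%. The highest, nlp-49, whose peptides act on the receptor SEB-3 to raise locomotor activity, stood at 484 ± 33.6 in the mutant and 515 ± 18.8 in N2 CPM per kilobase (SD, n = 3 each). In CPM it held 267, 298 and 305 CPM in mutant replicates 1, 2 and 3, against 318, 312 and 296 CPM in N2 replicates 1, 2 and 3. The groups overlapped, and the log2 fold change was -0.09 ± 0.11 (SE, adjusted p in edgeR = 0.602). Next in level came nlp-18, at 344 ± 24.3 in the mutant and 480.4 ± 63 in N2 CPM per kilobase, and the antimicrobial gene nlp-33, at 311 ± 55.9 in the mutant and 494 ± 92 in N2, whose N2 levels did not differ from that of nlp-49 beyond their spread, while in the mutant nlp-49 stood above both. The fold change of nlp-18 was -0.48 ± 0.13 (SE, adjusted p in edgeR = 0.0310), and the call was lost with library size alone (0.139), with the length trend removed (0.371), over a range of 0.0103 to 0.371. With 1 library left out its adjusted p was 0.112 without mutant replicate 2, 0.129 without mutant replicate 3 and 0.0609 without N2 replicate 2. The gene nlp-36 was at -0.52 ± 0.12 (adjusted p = 0.0163) in edgeR, and its call was lost under the same 2 scalings (0.116 and 0.415), over a range of 0.00261 to 0.415, and it was 0.0646 without mutant replicate 2 and 0.0672 without mutant replicate 3. The gene nlp-3, whose peptides act in egg laying and avoidance, held 113, 109.9 and 115 CPM in the mutant libraries against 136, 152 and 173 CPM in the N2 libraries, at -0.45 ± 0.12 (adjusted p = 0.0297) in edgeR. Its call was lost in 9 of 15 alternatives, which ranged from 0.00908 to 0.332 and included 0.0690 without mutant replicate 1, 0.0985 without mutant replicate 2, 0.104 without mutant replicate 3, 0.0788 without N2 replicate 2 and 0.0629 without N2 replicate 3. The genes nlp-80 and nlp-51 did not pass, at -0.38 ± 0.12 (adjusted p = 0.0504) and -0.20 ± 0.12 (adjusted p = 0.260) in edgeR, although in each all mutant libraries lay below all N2 libraries. With the replicate block nlp-80 passed (0.0250, with 0.0250 to 0.581 over all alternatives), as it did without N2 replicate 3 (0.0395).

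A set of 10 further members was picked after their values were seen, 6 of them with described roles in neurons or the gut. The gene nlp-1, whose peptides from the AWC olfactory neuron act on the receptor NPR-11, held 77.3, 55.4 and 61.7 CPM in the mutant libraries against 127, 93.2 and 96.4 CPM in the N2 libraries. It fell by edgeR, at -0.70 ± 0.17 (adjusted p = 0.0217), but not with library size alone (0.0609), or with the length trend removed (0.0890), over a range of 0.00151 to 0.0893, and its adjusted p was 0.0761 without mutant replicate 2 and 0.0893 without mutant replicate 3. The gene nlp-8, which acts in stress-induced sleep, held 195, 151 and 169.5 CPM in the mutant libraries against 193, 169.5 and 159 CPM in the N2 libraries. Its groups overlapped, at -0.02 ± 0.14 (adjusted p = 0.940). The gene nlp-40, whose peptide is secreted by the intestine to time defecation through the receptor AEX-2, held 165, 156 and 144 CPM in the mutant libraries against 223, 188 and 160.3 CPM in the N2 libraries, at -0.30 ± 0.14 (adjusted p = 0.171). The orcokinin gene nlp-14 was at -0.36 ± 0.16 (adjusted p = 0.140), nlp-7, made in the ASH nociceptors, at -0.57 ± 0.19 (adjusted p = 0.0572), and the tachykinin-like gene nlp-58 at -0.47 ± 0.17 (adjusted p = 0.0825) by the same test. Of these, nlp-58 passed with the replicate block (0.0224, with 0.0224 to 0.410 over all alternatives). The gene nlp-91 held 4.65, 7.72 and 6.55 CPM in the mutant libraries against 10.9, 17.4 and 14.1 CPM in the N2 libraries and fell, at -1.16 ± 0.26 (adjusted p = 0.0138) in edgeR, and nlp-26 held 33, 16.1 and 25.4 CPM in the mutant libraries against 62.2, 37.4 and 54.4 CPM in the N2 libraries and fell, at -1.05 ± 0.29 (adjusted p = 0.0306). The call of nlp-91 was lost only without mutant replicate 3 (0.0527), and that of nlp-26 in 6 of 15 alternatives (0.000346 to 0.125), among them 0.0655 without mutant replicate 2, 0.0915 without mutant replicate 3, 0.0719 without N2 replicate 1 and 0.0747 without N2 replicate 3. At the other end nlp-62 held 16.1, 14.2 and 16.9 CPM in the mutant libraries against 10.2, 8.42 and 18.3 CPM in the N2 libraries, at 0.36 ± 0.29 (adjusted p = 0.404), and nlp-89 11.9, 8.99 and 10.5 CPM in the mutant libraries against 7.31, 8.87 and 9.46 CPM in the N2 libraries, at 0.29 ± 0.19 (adjusted p = 0.313), so that neither rose in this fit. With the length trend removed nlp-89 passed as higher in the mutant (0.0397), and with that trend and the block nlp-62 passed as well (0.0155), as it did without N2 replicate 3 (0.0332).

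The remaining 15 tested records did not pass, with log2 fold changes from -0.85 to 0.10 and adjusted p-values from 0.0573 to 0.975 in edgeR. Of these, the second nlp-6 record, nlp-63, nlp-66 and nlp-68 passed as lower with the replicate block, which called 42 nlp records in all where 16.3% of all tested records fell and 18.9% rose. A further 15 nlp records did not pass the count filter. The one nearest to it was nlp-45, with 20 counts over the mutant libraries and 33 over the N2 libraries, and the lowest one that passed was nlp-60, with 58 and 55. Of the 15 records, 7 had 0 counts in every library. The sleep peptide gene nlp-22 had 3 counts in the mutant group and 7 in N2, and its neighbour nlp-23 14 and 22, so no difference was detectable at this depth. By the Ensembl annotation, nlp-45, nlp-22, nlp-23 and nlp-2 stand next to each other on 1 strand of chromosome X. Of the 7 genes with several records, nlp-9 had 10 counts in all, and reads that fit several records may be missing from such genes. By the Ensembl annotation of WBcel235, 15 nlp genes share some exonic bases with another gene, in 12 cases on the other strand, and their counts are uncertain to that extent.

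Most of the epidermal antimicrobial nlp genes stood lower in the mutant than in N2, with N2 replicate 1 close to the mutant libraries in several. All 9 genes on this list with a record passed the filter. Of these, 5 fell and 0 rose, where 11.7% of all tested records fell and 14.3% rose. The median log2 fold change of the 9 was -0.70. The gene nlp-27 (RefSeq NM_071710, chromosome V) held 26.8, 25 and 27.2 CPM in mutant replicates 1, 2 and 3, against 70.5, 57.2 and 65.2 CPM in N2 replicates 1, 2 and 3, a log2 fold change of -1.29 ± 0.13 (SE, adjusted p in edgeR = 0.000325) that held in all 15 alternatives. The gene nlp-25 (RefSeq NM_075400, chromosome V) held 2.48, 3.86 and 4.38 CPM in mutant replicates 1, 2 and 3, against 8.02, 17.1 and 19.6 CPM in N2 replicates 1, 2 and 3. It fell to a log2 fold change of -2.06 ± 0.37 (SE, adjusted p in edgeR = 0.00588), also in all 15 alternatives, and its N2 replicate 1 was lower than the other N2 libraries. The gene nlp-24, whose opioid-like peptide acts on the receptor NPR-17, held 81.8, 92.8 and 105 CPM in mutant replicates 1, 2 and 3, against 110.4, 167 and 177 CPM in N2 replicates 1, 2 and 3, at -0.70 ± 0.19 (SE, adjusted p in edgeR = 0.0327). The gene nlp-28 held 27.5, 32.3 and 37.9 CPM in mutant replicates 1, 2 and 3, against 38.3, 82.5 and 85.2 CPM in N2 replicates 1, 2 and 3, at -1.07 ± 0.30 (SE, adjusted p in edgeR = 0.0317), and nlp-33 107 ± 19.2 CPM in the mutant and 170.1 ± 31.6 CPM in N2 (SD, n = 3 each), at -0.67 ± 0.19 (SE, adjusted p in edgeR = 0.0336). The calls of nlp-24, nlp-28 and nlp-33 were lost with library size alone and with the length trend removed, over ranges of 0.00361 to 0.167, 0.00160 to 0.0973 and 0.00218 to 0.183. They also depended on single libraries. The adjusted p of nlp-24 was 0.0861 without mutant replicate 1, 0.0938 without mutant replicate 2, 0.0630 without mutant replicate 3, 0.101 without N2 replicate 2 and 0.0886 without N2 replicate 3. That of nlp-28 was 0.0815 without mutant replicate 1, 0.0899 without mutant replicate 2, 0.0648 without mutant replicate 3, 0.0973 without N2 replicate 2 and 0.0932 without N2 replicate 3. That of nlp-33 was 0.0770 without mutant replicate 1, 0.0630 without mutant replicate 2, 0.0709 without mutant replicate 3, 0.0880 without N2 replicate 2 and 0.0877 without N2 replicate 3.

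The best-known member, nlp-29, held 54.9, 69.3 and 71.4 CPM in mutant replicates 1, 2 and 3, against 62, 155 and 161 CPM in N2 replicates 1, 2 and 3. N2 replicate 1 lay among the mutant libraries, so the groups overlapped, and the log2 fold change of -0.95 ± 0.33 (SE, adjusted p in edgeR = 0.0704) did not pass. It was -1.29 (adjusted p = 0.00137) without N2 replicate 1, and it passed with the replicate block (0.0119), in DESeq2 (0.0206) and without a count filter (0.0179), in a range of 0.00137 to 0.190 over all alternatives. The gene nlp-31, which held 43.8, 49 and 48.1 CPM in mutant replicates 1, 2 and 3, against 45.3, 83.5 and 95.2 CPM in N2 replicates 1, 2 and 3, was also low in N2 replicate 1. Its log2 fold change was -0.67 ± 0.25 (SE, adjusted p in edgeR = 0.0901), against -0.94 (adjusted p = 0.00265) without N2 replicate 1 and an adjusted p of 0.0290 with the block, in a range of 0.00265 to 0.285. The gene nlp-30 held 10.5, 12.5 and 12.2 CPM in mutant replicates 1, 2 and 3, against 7.53, 19.9 and 18.5 CPM in N2 replicates 1, 2 and 3, at -0.38 ± 0.34 (SE, adjusted p in edgeR = 0.452), and -0.72 without N2 replicate 1 (adjusted p = 0.0183, in a range of 0.0183 to 0.805). The gene nlp-32 was low and varied between libraries, at 0.465, 1.65 and 1.46 CPM in the mutant libraries against 0.275, 1.63 and 3.15 CPM in the N2 libraries, and its log2 fold change of -0.50 ± 0.75 (SE, adjusted p in edgeR = 0.673) did not pass.

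Across the 9 antimicrobial records, N2 replicate 1 stood at a median of 0.456 times the mean of N2 replicates 2 and 3, and was lower in 8 of 9. The exception was nlp-27, at 1.15 times. Across the other 55 tested nlp records the median ratio was 0.979, with 31 of 55 below 1. In the mutant group the same ratio for replicate 1 was 0.783 for the antimicrobial records and 1.11 for the others. Summed over the list, the level was 333, 404 and 426 CPM in mutant replicates 1, 2 and 3, against 479, 757 and 825 CPM in N2 replicates 1, 2 and 3. Without N2 replicate 1, 8 of the 9 antimicrobial records fell and their median was -1.01. With the length trend removed 2 of 9 fell, where 10.6% of all tested records fell. Genes nlp-31, nlp-30, nlp-29, nlp-28 and nlp-27 stand next to each other in that order on 1 strand of chromosome V, with 0 other genes between them, by the Ensembl annotation of WBcel235. They are close paralogs, and reads shared between them leave single members uncertain. Of 10 tested records of epidermis markers 1 rose and 1 fell (2 and 1 with the block), where 14.3% of all records rose and 11.7% fell. With the block 18.9% of all records rose and 16.3% fell. The median log2 fold change of the epidermis markers was 0.64, and elt-3 was at 0 counts. These markers also varied with the replicate number, at a summed level of 202, 648 and 249 CPM in mutant replicates 1, 2 and 3, against 185, 525 and 376 CPM in N2 replicates 1, 2 and 3. In both groups replicate 1 was the lowest and replicate 2 the highest, and the part of this in the antimicrobial values was not tested.

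**Figure D5:**
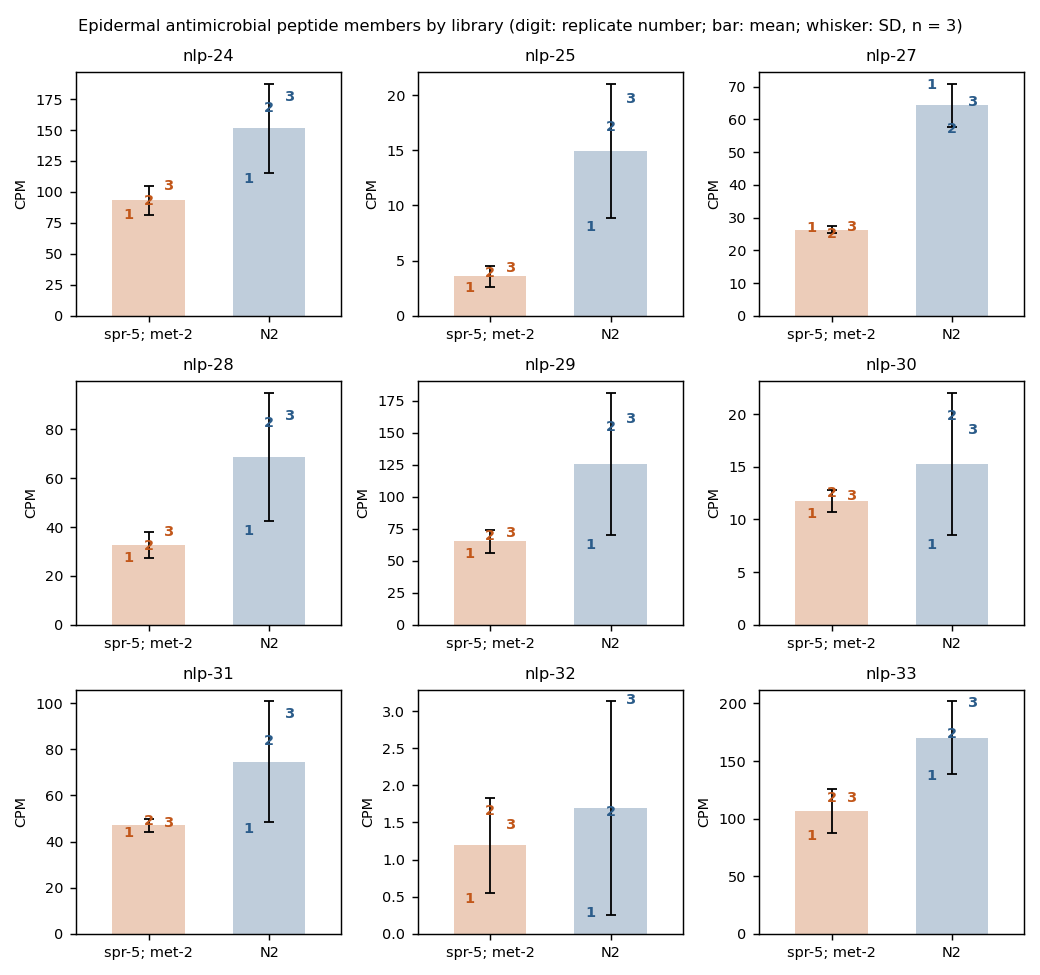
CPM of the 9 tested epidermal antimicrobial nlp genes, with 1 panel per gene, the mutant on the left and N2 on the right. Digits mark the replicate number of each library, bars the mean and whiskers the SD (n = 3). In each panel except nlp-27 the lowest N2 library is replicate 1, and in nlp-29, nlp-30, nlp-31 and nlp-32 it lies within or below the range of the mutant libraries.

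The related caenacin (cnc) genes, which encode antimicrobial peptides of the same epidermal response, had falling members as well. Of 11 cnc genes, 7 were tested, 2 fell and 0 rose, the median log2 fold change being -0.59, where 11.7% of all tested records fell. With library size alone 1 cnc record fell and the median was -0.39, where 5.68% of all records fell. With the length trend removed 2 fell and the median was -0.27, where 10.6% of all records fell. The gene cnc-8 stood at 34.3 ± 4.75 CPM in the mutant and 64.1 ± 15 CPM in N2 (SD, n = 3 each), a log2 fold change of -0.90 ± 0.20 (SE, adjusted p in edgeR = 0.0124). The gene cnc-6 was low throughout, at 0.324 ± 0.197 CPM in the mutant and 2.52 ± 1.77 CPM in N2 (SD, n = 3 each), a log2 fold change of -2.99 ± 0.68 (SE, adjusted p in edgeR = 0.0157). The adjusted p of cnc-8 was below 0.05 with any 1 library left out, and that of cnc-6 0.0709 without mutant replicate 3. The block called 4 of the 7 as lower, where it called 16.3% of all tested records as lower and 18.9% as higher. Summed, cnc genes held 80.8, 118.7 and 113 CPM in mutant replicates 1, 2 and 3, against 116, 199 and 206 CPM in N2 replicates 1, 2 and 3, so that N2 replicate 1 was again the lowest N2 library. Genes of the pathway that induces nlp-29 were called about as often as all records, of which 14.3% rose and 11.7% fell. Of 20 listed, 15 were tested with 16 records, 2 rose (4 with the block) and 2 fell (2 with the block), with a median of -0.12, and 0.13 with library size alone. The rises were tir-1, which encodes the SARM-type adaptor upstream of the p38 kinase cascade, at 1.35 ± 0.36 (SE, adjusted p in edgeR = 0.0291), and the bZIP factor gene cebp-1, at 0.87 ± 0.18 (SE, adjusted p in edgeR = 0.0110). The falls were dcar-1, which encodes the receptor for the damage signal HPLA, at -0.46 ± 0.14 (SE, adjusted p in edgeR = 0.0441), and the transporter gene snf-12, at -0.50 ± 0.15 (SE, adjusted p in edgeR = 0.0488). Both falls were lost with library size alone (adjusted p = 0.312, with 0.0153 to 0.312 over all alternatives, for dcar-1, and 0.337, with 0.00884 to 0.337, for snf-12). With 1 library left out, the adjusted p of tir-1 was 0.0986 without mutant replicate 2, 0.0631 without N2 replicate 2 and 0.0519 without N2 replicate 3, that of dcar-1 0.134 without mutant replicate 2, 0.159 without mutant replicate 3, 0.0699 without N2 replicate 1, 0.106 without N2 replicate 2 and 0.0790 without N2 replicate 3, that of snf-12 0.0891 without mutant replicate 1, 0.150 without mutant replicate 2, 0.155 without mutant replicate 3, 0.147 without N2 replicate 2 and 0.0710 without N2 replicate 3 and that of cebp-1 below 0.05 with any 1 library left out. The p38 kinase gene pmk-1 was at 0.43 ± 0.14 (SE, adjusted p in edgeR = 0.0581), and passed with the block (0.0273, with 0.00651 to 0.176 over all alternatives).

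Genes that process and release neuropeptides were called about as often as all records, of which 14.3% rose and 11.7% fell. Of 22 listed, 17 were tested with 20 records, and 3 fell and 3 rose. The median log2 fold change was -0.15, with 0.07 under library size alone and -0.34 with the length trend removed. In that last fit the nlp median was -0.33, and 2 records of this list fell and 3 rose, where 10.6% of all records fell and 13.8% rose. Summed, the list held 5002, 4263 and 4447 CPM in mutant replicates 1, 2 and 3. The N2 replicates held 6724, 5909 and 5363 CPM, so the groups did not overlap. With the block 5 fell and 4 rose, where 16.3% of all tested records fell and 18.9% rose. With library size alone 2 fell and 5 rose, where 5.68% of all tested records fell and 19.8% rose. The falls were in genes for amidation and convertase maturation. The amidating monooxygenase gene pghm-1 stood at 482 ± 27.7 CPM in the mutant and 832 ± 105 CPM in N2 (SD, n = 3 each), a log2 fold change of -0.79 ± 0.14 (SE, adjusted p in edgeR = 0.00474). The lyase gene pgal-1, which completes amidation, stood at 651 ± 90.6 CPM in the mutant and 919 ± 39.2 CPM in N2 (SD, n = 3 each), a log2 fold change of -0.50 ± 0.14 (SE, adjusted p in edgeR = 0.0335). The gene sbt-1, for the 7B2-type chaperone of the EGL-3 convertase, stood at 695 ± 57.3 CPM in the mutant and 1108 ± 122 CPM in N2 (SD, n = 3 each), a log2 fold change of -0.67 ± 0.14 (SE, adjusted p in edgeR = 0.00946). The fall of pgal-1 was lost with library size alone (0.166) and with the length trend removed (0.0517), in a range of 0.00668 to 0.166. With 1 library left out it was 0.132 without mutant replicate 2, 0.131 without mutant replicate 3, 0.0789 without N2 replicate 2 and 0.0551 without N2 replicate 3, while that of pghm-1 was below 0.05 with any 1 library left out and that of sbt-1 0.0532 without mutant replicate 3. The convertase gene egl-3 itself was at -0.01 ± 0.32 (SE, adjusted p in edgeR = 0.981) and the carboxypeptidase gene egl-21 at -0.32 ± 0.15 (SE, adjusted p in edgeR = 0.172). The rises were ric-19, at 0.43 ± 0.12 (SE, adjusted p in edgeR = 0.0321), the neprilysin gene nep-1, whose product can degrade peptides, at 0.68 ± 0.16 (SE, adjusted p in edgeR = 0.0169), and 1 of 4 tested records of the convertase gene bli-4, at 1.43 ± 0.36 (SE, adjusted p in edgeR = 0.0228). Their adjusted p-values with 1 library left out were, for ric-19, 0.0686 without mutant replicate 1, 0.101 without mutant replicate 2, 0.114 without mutant replicate 3, 0.0596 without N2 replicate 1, 0.0825 without N2 replicate 2 and 0.0735 without N2 replicate 3. For nep-1 this was 0.0521 without mutant replicate 2, 0.0525 without N2 replicate 1 and 0.0594 without N2 replicate 3, and for bli-4 0.0770 without mutant replicate 2, 0.0978 without mutant replicate 3, 0.0796 without N2 replicate 2 and 0.0691 without N2 replicate 3. The gene unc-31, which encodes the CAPS protein of dense-core vesicle release, had 0 counts in all libraries over its several records. Of 17 receptor genes 14 were tested, 1 fell (2 with the block) and 0 rose, with a median of -0.27. The one that fell was npr-5, a receptor for FMRFamide-like peptides, at -0.73 ± 0.22 (SE, adjusted p in edgeR = 0.0440), and its adjusted p was 0.107 without mutant replicate 1, 0.141 without mutant replicate 2, 0.0788 without mutant replicate 3, 0.0835 without N2 replicate 1, 0.0634 without N2 replicate 2 and 0.0613 without N2 replicate 3, and 0.150 with library size alone. The NLP-12 receptor gene ckr-1 was at -0.52 ± 0.21 (SE, adjusted p in edgeR = 0.107), and its paralog ckr-2 had 0 counts in every library. How reads shared between records were counted is not given, so 0 counts do not show that a gene is silent.

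The other peptide families were read beside nlp, with no test of a difference between families. Over all tested records, 11.7% fell and 14.3% rose, and 10.6% fell with the length trend removed. Of 27 tested records of FMRFamide-like (flp) genes, 18 fell and 0 rose, the median log2 fold change being -0.63. With the length trend removed, 7 flp records fell and the median was -0.42. Of 25 tested records of insulin-like (ins) genes, 10 fell and 3 rose, with a median of -0.67, and -0.45 with the length trend removed. These families are short as well, with median exonic lengths of 670.0 and 429 bases. By chromosome, falling nlp records were 9 of 15 on V, 10 of 16 on X, 5 of 9 on II, 5 of 8 on III, 3 of 11 on IV and 2 of 5 on I. The share of all records falling on each chromosome was not taken, so no chromosome is singled out. Among the 64 nlp records, Spearman's rho of the log2 fold change was -0.09 with exonic length and 0.03 with mean CPM per kilobase over the 6 libraries, a description across genes, which are not independent replicates and share the same libraries.

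Marker genes of the cell types in the animals were read beside these results. Over all tested records, 14.3% rose and 11.7% fell, and with the block 18.9% rose and 16.3% fell. The summed level of the pan-neuronal list was not lower in the mutant. Of its 18 genes 12 were tested with 14 records, and 2 rose and 1 fell (2 and 2 with the block), about as often as all records. The median log2 fold change was 0.13, with 0.0067 once the length trend was removed and 0.37 with library size alone. These genes were longer than the nlp genes, at a median exonic length of 1703.5 against 523 bases. The summed level of the list was 721, 804 and 782 CPM in mutant replicates 1, 2 and 3, against 669.9, 628 and 576 CPM in N2 replicates 1, 2 and 3. The tubulin gene tbb-1 and ric-19 rose, at 0.59 ± 0.14 (SE, adjusted p in edgeR = 0.0188) and 0.43 ± 0.12 (SE, adjusted p in edgeR = 0.0321), and the active zone gene unc-10 fell, at -0.64 ± 0.14 (SE, adjusted p in edgeR = 0.0115). The adjusted p of tbb-1 was 0.0738 without mutant replicate 2, 0.0786 without mutant replicate 3, 0.0551 without N2 replicate 2 and 0.0622 without N2 replicate 3, and that of unc-10 below 0.05 with any 1 library left out but 0.121 with library size alone. The vesicle GTPase gene rab-3 was at -0.79 ± 0.35 (SE, adjusted p in edgeR = 0.139), and passed as lower with the block (0.0253, with 0.0226 to 0.333 over all alternatives). The neuronal genes ehs-1, rgef-1, unc-11 and unc-18 were at 0 counts in every library, which is also so for other genes with several records, so the list is read only in part. Intestinal markers summed to 7028 to 8527 CPM in the mutant and 10051 to 12086 CPM in N2, with 2 of 11 rising and 4 falling. With library size alone 4 intestinal records rose and 4 fell, where 19.8% of all records rose and 5.68% fell. Body wall muscle markers summed to 15308 to 17659 CPM in the mutant and 17317 to 26379 CPM in N2, with 0 of 6 rising and 2 falling. Germ line markers summed to 1510.1 to 1621 CPM in the mutant and 94.1 to 134 CPM in N2, with 11 of 11 rising, and pgl-1 at 0 counts in every library. The part of these shifts in the lower nlp counts was not tested.

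The authors' deposited table, made with DESeq2, gives an adjusted p for 68 nlp records. By its values, 37 of them fell and 0 rose at an adjusted p below 0.05, where 10.6% of all 17918 records with an adjusted p fell. All 34 records that fell in edgeR are among these 37. The other 3 in the authors' deposited table are nlp-29, nlp-63 and the second nlp-6 record.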

How the data were processed

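RNA-seq counts of 6 libraries were analysed, 3 of spr-5; met-2 and 3 of N2, grouped and numbered by their titles. The deposited files hold raw whole-number counts for RefSeq transcript records. Reads were aligned with HISAT2, per the file headers. FastQC, Trimmomatic, featureCounts, DESeq2 2.11.40.2 and the build ce10 are named in the submitters' processing notes, with no role or order. The sources used here do not give the strand setting or the handling of reads shared between records. The authors' deposited comparison table gives, per the file headers, the base mean (a signal, from size-factor-scaled counts), the log2 fold change with its standard error, the Wald statistic (as scores), and both the p-value and its adjusted form.

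Of 50832 records, 46074 were named through a RefSeq table of WBcel235 by accession without version. Records were kept by filterByExpr (minimum count 10, minimum total 15), scaled by TMM (factors 0.827 to 1.11) and tested two-sided with edgeR 4.0.16 (R 4.3.3, limma 3.58.1, DESeq2 1.42.0) by the quasi-likelihood test, with Benjamini-Hochberg adjustment over all 14557 records and a threshold of 0.05. The SE is the log2 fold change divided by the square root of F. The procedure was tested on simulated counts of the real design. Log2 changes of 0.5, 1 and 2 were called in 1.49, 16.4 and 75.8% of 67, 67 and 66 changed records. Of unchanged records 0.0139% were called. Far fewer records changed there than the 3773 called in the data, and the adjusted p depends on that number. The shares therefore do not carry over directly, but small changes can be missed.

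Lengths of genes were summed over exons of the Ensembl annotation of WBcel235, and were found for 87.8% of tested records and all nlp records. That build differs from ce10, so no coordinates are given. The length trend was a local regression of each library's log ratio on log length (span 0.3).

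Same-numbered libraries of the 2 groups deviated together from their group means (log2 CPM plus 0.5, correlations over records of 0.491, 0.388 and 0.214 for replicates 1, 2 and 3). Pairs with different numbers had correlations of -0.391 to 0.0845. Deviations cancel within a group, so these values are not independent. The replicate number was taken as a possible pairing of the libraries, used in the replicate block but not in the main test. This pairing comes from the data, since no label states what a number shares. The replicate block is therefore given beside results of single named genes whose call it changes and beside counts that it moves by over 1.5 times.

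Members and gene lists were chosen with earlier results of these data known. Members named are up to 15 rising and 15 falling by adjusted p, the 10 highest in CPM per kilobase, the antimicrobial list and those next to the count filter. Of each other list they are up to 4 members with the smallest adjusted p past the threshold, and further members of it named with their values were chosen after those were seen. Alternatives were other scalings, filters, tests and thresholds, the block, counts summed per gene, each library left out in turn and the length trend.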

Additional observations from a re-analysis of the deposited data

How the results depend on the processing

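The count of falling nlp records, 34 as reported, was 34 with DESeq2's size factors within edgeR, 34 with counts summed per gene, 32 without a count filter (30 of them among the 34), 35 with a filter of 1 CPM in 3 libraries, 39 in DESeq2, 35 in limma voom and 42 with the replicate block, all within 1.5 times. The block lost none of the 34 calls and, beside those given with it above, changed no other call of a named nlp gene. The count was 13 with library size only, 15 with the length trend removed (23 with the block as well), 16 at an adjusted p below 0.01 and 9 with a 2-fold minimum. Leaving out 1 library gave 16 to 38 falling nlp records (17 without mutant replicate 2 and 16 without mutant replicate 3) and 0 to 1 rising. The count rising was 0 in all other settings except 1 with the length trend removed and 2 with that trend and the block. The count of all records called was 3773, with 1879 at an adjusted p below 0.01, 2161 with a 2-fold minimum and 2210 to 3849 when 1 library was left out.

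For 39 named genes, 524 of 623 values kept their direction and their side of the threshold, 62 lost the call, 18 gained it and 19 changed sign, the last in genes with no call. The log2 fold change of nlp-8 was 0.21 with library size only, 0.00034 without a count filter, 0.071 with the length trend removed, 0.072 with that trend and the block, and -0.12 to 0.069 with 1 library left out. For nlp-49 it was 0.14, 0.12 and 0.12 with library size only, the length trend removed, and that trend with the block, and for nlp-51 0.025, 0.14 and 0.13. For nlp-60 these were 0.13, 0.26 and 0.28, with 1 library left out giving -0.32 to 0.32. For nlp-32 the trend with the block gave 0.031, and 1 library left out gave -1.01 to 0.28. The causes of these shifts were not tested. A p-value that misses the threshold at 3 libraries a group does not show equal levels.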
